A study of Mus musculus with 8 samples.

Results

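The genes of the platelet-derived growth factor (PDGF) family were followed in single-cell RNA sequencing data from the stroma of mouse bone, with and without a healing fracture. They were chosen by name as the 4 ligand genes Pdgfa, Pdgfb, Pdgfc and Pdgfd and the 2 receptor genes Pdgfra and Pdgfrb, 6 of the 28956 genes in the tables, and all 6 were found in each of the 8 libraries. The Control group came from unfractured C57BL/6 females aged 12 weeks, and the Fracture group from C57BL/6 females of the same age whose leg bone had been broken at 10 weeks and fixed with a nail inside the marrow cavity, with collection at day 14. The suspensions of both groups had been depleted of blood lineage cells and of cells carrying CD45 or CD117 with magnetic beads. Each group held 2 cell preparations and each preparation 2 droplet libraries. The number of animals behind a preparation is not given in the sources used here, and the nail lies where much of the marrow stroma is found.

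PDGFs are secreted dimers that bind receptor tyrosine kinases on mesenchymal cells. PDGF-A acts through PDGF receptor alpha, PDGF-B binds both receptors and recruits pericytes and smooth muscle cells to vessels, and PDGF-C and PDGF-D are secreted with a CUB domain that a protease has to cut off before they can bind. In bone the receptors are known from skeletal progenitors, marrow stroma and the cells that wrap vessels, and the ligands from platelets, endothelium and bone cells.

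On the mm10 (GRCm38) assembly, Pdgfa lies on the minus strand of chromosome 5 from 138976014 to 138997370, Pdgfb on the minus strand of chromosome 15 from 79995874 to 80014977, Pdgfc on the plus strand of chromosome 3 from 81036416 to 81214040 and Pdgfd on the plus strand of chromosome 9 from 6168584 to 6378850. Pdgfra lies on the plus strand of chromosome 5 from 75152292 to 75198215 (GENCODE M21 gene models). The kit counts transcripts from their 3′ end, so that splice forms of these genes could not be told apart. The 250 bases before the RefSeq start site (GRCm38.p6) are shown for a ligand gene and a receptor gene, Pdgfc at chr3:81036166-81036415 and Pdgfra at chr5:75152001-75152250. Both are on the plus strand and written 5′ to 3′. Their levels moved in opposite directions in the stromal class called BMSC-like below, whose markers in Fracture go against that name. Capitals mark a CArG box, the sequence that serum response factor is known to bind.
Pdgfc: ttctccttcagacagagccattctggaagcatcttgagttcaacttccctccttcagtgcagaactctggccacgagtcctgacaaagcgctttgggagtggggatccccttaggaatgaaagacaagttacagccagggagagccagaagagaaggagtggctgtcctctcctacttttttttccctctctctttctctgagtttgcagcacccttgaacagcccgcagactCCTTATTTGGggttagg
Pdgfra: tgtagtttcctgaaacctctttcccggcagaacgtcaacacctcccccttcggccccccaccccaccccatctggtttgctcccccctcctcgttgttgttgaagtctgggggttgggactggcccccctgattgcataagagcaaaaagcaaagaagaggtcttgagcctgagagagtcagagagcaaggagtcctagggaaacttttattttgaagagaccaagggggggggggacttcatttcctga
The CArG box of Pdgfc spans bases 17 to 8 before the start, and 1.47% of 32851 mouse promoter windows of the same length hold one on either strand. It was searched for after the sequence had been seen. Neither window holds GGGCGG (the GC box, in 32.7% of windows), GCGNGGGCG (the EGR site, in 4.7%) or TGANTCA (the AP-1 site, in 6.75%) on either strand. The windows of Pdgfa, which has 2 starts in the table, hold 1 and 2 GC boxes. These matches describe letters only.

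The libraries held 56543151 to 89126291 unique molecular identifiers (UMIs), each standing for 1 captured transcript, and 45328 of 48903 barcodes passed the filters, 20676 in Control and 24652 in Fracture. A cell held 7711 UMIs at the median in Control and 11351 in Fracture, and pairs of libraries shared 10 to 23 barcodes. Libraries of the same preparation were not copies of each other (mean chi-square of 5.38 to 7.73 for a gene, against 1 for sampling noise) and were summed, which left n = 2 preparations per group. Clustering after integration of the libraries, without the 6 genes and the pathway genes described further on, gave 6 stromal classes that were named from marker genes and are called -like for that reason. Per preparation these classes took up 9168 and 5002 Control cells against 11495 and 12335 Fracture cells, so that blood cells and unnamed clusters made up more of the Control cells in spite of the depletion. Basophil-like cells alone numbered 714 and 324 in Control and 12 and 14 in Fracture. The 6 classes were chondrocyte-like cells, osteoblast-like cells, bone mesenchymal stromal cell (BMSC)-like cells, fibroblast-like cells, endothelial-like cells and smooth muscle-like cells. A UMI sum over a class can change with the cells placed in it as well as with transcription, and fewer cells of a type and less RNA per cell cannot be told apart in such a sum.

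How alike the cells of a class were in both groups was checked with the summed level of 8 defining markers, in UMIs per 1000000 UMIs of the class (CPM). The BMSC markers, among them Cxcl12, Lepr and Adipoq, summed to 27560 and 29230 CPM in BMSC-like cells of the Control preparations and to 1955 and 2257 CPM in those of the Fracture preparations. The chondrocyte markers in the same class went from 322 to 731 CPM in Control to 2803 to 3117 CPM in Fracture (8 of 8 higher, no overlap), the fibroblast markers from 45.0 to 104 CPM to 619 to 698 CPM (8 of 8 higher) and the smooth muscle markers from 244 to 322 CPM to 818 to 1002 CPM (4 of 8 higher, 2 lower). Osteoblast markers stood at 7954 to 9143 CPM in Control and at 9451 to 10330 CPM in Fracture, where they were above the BMSC markers of the same cells, which goes against the name of the class in Fracture. When clusters were made without integration, 2046 and 1470 Control cells but 78 and 105 Fracture cells fell into the cluster with BMSC markers, and the marker sum there was 39830 and 35960 CPM in Control and 21270 and 20870 CPM in Fracture. In that cluster 183 genes rose and 171 fell of 12978 tested, against 3779 and 3852 of 14781 in the integrated class, so that the loss of member calls without integration, given with each gene, is not particular to the members. Values for BMSC-like cells are therefore given with and without integration, and the part of these marker differences in the results was not tested. In fibroblast-like cells, the fibroblast markers summed to 16020 and 18010 CPM in Control and to 7182 and 7702 CPM in Fracture, while the chondrocyte markers there went from 996 to 2123 CPM to 6265 to 7975 CPM (7 of 8 higher) and the erythroid markers from 29.8 to 169 CPM to 1552 to 1919 CPM (4 of 8 higher, 1 lower). There the chondrocyte markers were above the fibroblast markers in Fracture preparation 1 (7975 against 7182 CPM) and below them in preparation 2 (6265 against 7702 CPM). In endothelial-like cells, chondrocyte markers stood at 647 to 2114 CPM in Control and 13780 to 13890 CPM in Fracture. The class's own markers stood at 7618 and 7548 CPM in Control and at 5880 and 5864 CPM in Fracture. They were thus below the chondrocyte markers in Fracture, which by the same measure goes against the name there. Subclusters with markers of another stromal class made up 2.32% to 4.61% of the Control cells and 18.5% to 21.7% of the Fracture cells. In smooth muscle-like cells, chondrocyte markers went from 175 to 1018 CPM to 5561 to 9493 CPM (8 of 8 higher) and erythroid markers from 68.0 to 144 CPM to 4710 to 5181 CPM (6 of 8 higher), and the class's own markers from 29640 and 30330 CPM to 16790 and 18840 CPM. In chondrocyte-like cells the osteoblast markers went from 6901 to 8396 CPM in Control to 12890 to 13720 CPM in Fracture (4 of 8 higher, 2 lower). In osteoblast-like cells the class's own markers stood at 106600 and 124200 CPM in Control and 45770 and 58840 CPM in Fracture, the BMSC markers at 147 to 217 CPM and 66.6 to 75.8 CPM (6 of 8 lower, 1 higher), and the erythroid markers at 19.1 to 92.6 CPM and 249 to 368 CPM (3 of 8 higher). The part of these markers in the results for the 5 classes was not tested.

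Across the 6 classes, 35 of 36 pairs of gene and class passed the filter on low counts, and 15 of them changed by the quasi-likelihood test of edgeR at an adjusted p under 0.05, 7 higher and 8 lower in Fracture. The study calls the replicates independent, but the animals behind each are not given, and these p-values measure the spread between preparations. Without Fracture preparation 1 or 2 the same fit called 4 pairs each, Pdgfc, Pdgfd, Pdgfra and Pdgfrb in BMSC-like cells. There 1403 genes rose and 1196 fell of 15535 without preparation 1, and 1643 rose and 1432 fell of 15520 without preparation 2, whereas in chondrocyte-like, osteoblast-like, fibroblast-like and endothelial-like cells the fit called no gene of any kind, so that the loss of the other pairs in those classes is not particular to the members. The fit called 23 pairs without Control preparation 1 and 18 without Control preparation 2. More genes of all kinds were then called in 5 of the classes, 3997 higher and 3436 lower of 18566 in chondrocyte-like cells without Control preparation 1, and fewer in smooth muscle-like cells. There the fit called no gene of 11026 without Control preparation 1, and 430 higher and 255 lower of 11102 without Control preparation 2, and the call for Pdgfd was lost in both (adjusted p = 0.18 and 0.104). These counts have to be read beside the share of all genes that changed in a class. In chondrocyte-like cells 19.2% of genes rose and 18.1% fell, and 4 members rose. In osteoblast-like cells 9.53% rose and 6.23% fell, and 2 members fell. In BMSC-like cells 25.6% rose and 26.1% fell, and 2 members rose while 3 fell. In fibroblast-like cells 7.16% rose and 6.64% fell, and 1 member rose. In endothelial-like cells 17.4% rose and 15.9% fell, and 2 members fell. In smooth muscle-like cells 13.6% rose and 12.3% fell, and 1 member fell. Where the groups of a called change are said below not to overlap, this adds nothing to the call. The share of all genes without overlap was not counted. Levels below are plain CPM, and fold changes are on the log2 scale from the fit, which scales samples by TMM. With plain library sizes in its place the median change of all genes was −0.22 for the BMSC-like class, −0.16 for the chondrocyte-like class and −0.12 for the endothelial-like class, and with TMM it lay between −0.03 and 0.01 in each of them.

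**Figure D1:**
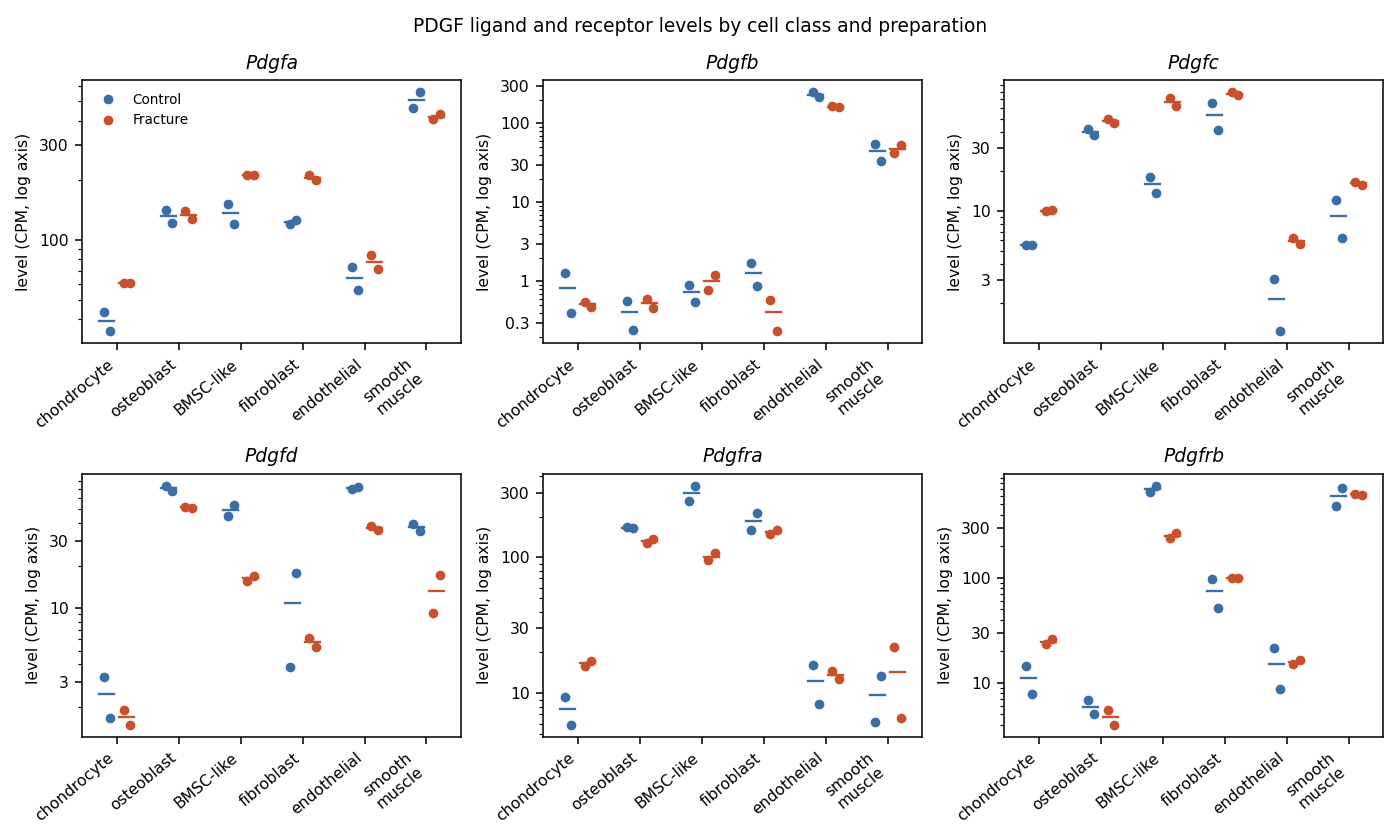
Level of each gene in each class, in CPM on a log axis with its own range per panel. Points are the 2 preparations of Control (blue) and Fracture (red) and bars their means. Pdgfb stands apart in endothelial-like cells, and the levels of Pdgfra and Pdgfrb in BMSC-like cells lie lower in Fracture, at 95.5 and 107 CPM against 259 and 338 CPM for Pdgfra.

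Pdgfa, whose product signals through PDGF receptor alpha, was highest in smooth muscle-like cells and rose after fracture in 3 other classes. Smooth muscle-like cells held 461 and 556 CPM in Control and 406 and 430 CPM in Fracture. The groups did not overlap, yet the change of −0.27 ± 0.14 (SE, 95% interval −0.64 to 0.10, adjusted p = 0.234) did not pass the test. The class was made of different subclusters in the groups. A subcluster led by Saa3 held 37 and 11 cells in Control and 66 and 62 in Fracture with Pdgfa at 273 and 274 CPM against 318 and 432 CPM, while one led by Rergl held 158 and 40 cells in Control and 13 and 14 in Fracture, at 590 and 701 CPM against 634 and 823 CPM. The class held 726 and 212 cells in Control and 168 and 163 in Fracture. The Saa3-led subcluster matched the chondrocyte list best (100% of markers raised), then the osteoblast list (87.5%). It stayed unnamed, so it was not left out with the mixed subclusters. In BMSC-like cells the level was 153 and 121 CPM in Control and 213 and 212 CPM in Fracture, a rise of 0.82 ± 0.12 (adjusted p = 0.00725). Fibroblast-like cells went from 121 and 126 CPM to 213 and 200 CPM, a rise of 0.83 ± 0.11 (adjusted p = 0.0185). Both Fracture preparations were above both Control preparations in each of these classes, whose changes had already been called. Chondrocyte-like cells, the class with the lowest level, went from 43.6 and 34.8 CPM to 60.6 and 61.1 CPM, a rise of 0.79 ± 0.12 (adjusted p = 0.011). Osteoblast-like cells held 142 and 122 CPM in Control and 141 and 127 CPM in Fracture, so that the groups overlapped (−0.04 ± 0.08, 95% interval −0.24 to 0.16, adjusted p = 0.757). Endothelial-like cells held 73.2 and 56.4 CPM in Control and 84.2 and 71.2 CPM in Fracture, also with overlap (0.39 ± 0.16, adjusted p = 0.126). This rise passed with called doublets removed (adjusted p = 0.0486) and with mixed subclusters left out (adjusted p = 0.0413). In the order of levels, the BMSC-like, the osteoblast-like and the fibroblast-like cells of Control overlapped with their neighbours, and in Fracture BMSC-like and fibroblast-like cells did. Without integration the rise in BMSC-like cells was 0.42 ± 0.12 and did not pass (adjusted p = 0.124).

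Within the endothelium, Pdgfa moved in both directions. Arterial endothelial-like cells, which carried Gja5 and Bmx, held 122 and 125 CPM in Control and 72.6 and 74.3 CPM in Fracture, and the fall of 0.68 on the log2 scale passed the test (SE 0.12, adjusted p = 0.0236, against 4.4% of genes that fell and 6.45% that rose there). Sinusoidal endothelial-like cells, with Stab2 and Dnase1l3, went the other way, from 16.3 and 20.6 CPM to 34.3 and 31.8 CPM (0.87 ± 0.22, adjusted p = 0.0388, against 10.5% of genes that rose and 8.3% that fell). These last values rest on 26 to 51 UMIs per preparation. A subcluster led by Ramp3 and Kcne3 went from 46.3 and 39.8 CPM to 66.7 and 71.4 CPM (0.78 ± 0.13, adjusted p = 0.0183, background 11.2% higher and 9.06% lower), and a subcluster led by Glycam1 and Timp4 from 66.2 and 55.1 CPM to 185 and 128 CPM (1.33 ± 0.22, adjusted p = 0.0194, background 4.8% higher and 5.03% lower). The difference between the endothelial subclasses was not tested. The Fracture preparations held 106 and 151 arterial endothelial-like cells and the Control preparations 451 and 287.

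Pdgfb, the ligand of both receptors, was an endothelial transcript in these cells. Endothelial-like cells held 248 and 214 CPM in Control and 164 and 159 CPM in Fracture, with no overlap. The fall of 0.39 on the log2 scale passed narrowly (SE 0.09, adjusted p = 0.0362). With the subclusters that carried markers of another class left out it was −0.18 ± 0.10 and did not pass (adjusted p = 0.245), nor did it without integration (−0.17 ± 0.10, adjusted p = 0.227), at a finer resolution (adjusted p = 0.0509), with the replicate block (adjusted p = 0.0584) or in 1 joint fit over the classes (adjusted p = 0.378). Of the subclusters inside the class 5 were tested, and none passed. A subcluster led by Fam64a, Cep55 and Ube2c, which was not tested, held more Pdgfb in Fracture, 184 and 161 CPM from 144 and 166 cells, than in Control, 147.6 and 102.5 CPM from 18 and 32 cells. Arterial endothelial-like cells held the highest level, 403 and 339 CPM in Control and 350 and 335 CPM in Fracture (−0.04 ± 0.11, adjusted p = 0.823), and the Ramp3-led cells 250 and 238 CPM against 227 and 210 CPM (−0.06 ± 0.08, adjusted p = 0.626). Sinusoidal endothelial-like cells held 122 and 114 CPM in Control and 81.8 and 91.1 CPM in Fracture (−0.39 ± 0.12, adjusted p = 0.0653). Smooth muscle-like cells came next in order, with 55.2 and 33.7 CPM in Control and 42.4 and 53.5 CPM in Fracture, which overlapped (0.10 ± 0.28, adjusted p = 0.83). A subcluster of 47 and 3 Control cells and 14 and 10 Fracture cells in this class carried endothelial markers and held 103 of the 199 and 7 of the 43 Pdgfb UMIs in Control, and 43 of the 64 and 43 of the 81 in Fracture. With it left out the change was −0.45 ± 0.32 (adjusted p = 0.331). The remaining 4 classes had at most 1.70 CPM in any preparation, from 1 to 49 UMIs each, and Pdgfb was not tested in fibroblast-like cells, where the groups held 5 and 6 UMIs.

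Pdgfc showed the largest rise among the 6 genes. In BMSC-like cells it was at 18.2 and 13.8 CPM in Control and at 71.8 and 62.4 CPM in Fracture, a rise of 2.26 ± 0.17 (adjusted p = 0.00205), or 4.12-fold in pooled UMIs (95% counting interval 3.70 to 4.59). Both Fracture preparations lay above both Control preparations, in a change already called. In clusters without integration it was the member that still changed in this class, from 2.7 and 2.5 CPM to 18.8 and 13 CPM (2.61 ± 0.36, adjusted p = 0.0412), with 9 UMIs in each Fracture preparation. Chondrocyte-like cells went from 5.49 and 5.57 CPM to 10.0 and 10.2 CPM, a rise of 1.02 ± 0.08 (adjusted p = 0.00309). Fibroblast-like cells had the highest mean level in both groups, though in Control they overlapped with osteoblast-like cells, with 65.6 and 40.9 CPM in Control and 79.4 and 75.6 CPM in Fracture (0.59 ± 0.24, 95% interval −0.04 to 1.21, adjusted p = 0.17). Their preparations did not overlap. Osteoblast-like cells held 41.8 and 37.8 CPM in Control and 49.7 and 46.1 CPM in Fracture (0.20 ± 0.07, adjusted p = 0.117). Endothelial-like cells were lowest, with 3.08 and 1.23 CPM in Control and 6.27 and 5.68 CPM in Fracture (1.57 ± 0.43, adjusted p = 0.0521). This change passed under 7 alternatives, among them DESeq2 (adjusted p = 0.0241) and the fit without called doublets (2.94 ± 0.65, adjusted p = 0.0296). Also among the 7 were the fits without a Control preparation and the fit with libraries as replicates. With mixed subclusters left out it was not called. The arterial endothelial-like cells held 2 Pdgfc UMIs in Control and 6 in Fracture. Smooth muscle-like cells held 12.2 and 6.28 CPM in Control and 16.6 and 15.9 CPM in Fracture (0.72 ± 0.36, adjusted p = 0.206).

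Pdgfd, the other ligand that needs proteolytic activation, fell in 4 classes. It was highest in osteoblast-like cells, with 73.7 and 67.8 CPM in Control and 52.3 and 51.1 CPM in Fracture, a change of −0.52 ± 0.06 (adjusted p = 0.0163). In endothelial-like cells it went from 69.2 and 71.9 CPM to 38.4 and 35.6 CPM, a change of −0.81 ± 0.08 (adjusted p = 0.00953). The Control levels of these classes overlapped with each other. In BMSC-like cells the level went from 45.1 and 54.1 CPM to 15.6 and 17.0 CPM, a change of −1.41 ± 0.14 (adjusted p = 0.00298), and in smooth muscle-like cells from 39.1 and 35.3 CPM to 9.28 and 17.2 CPM, a change of −1.48 ± 0.32 (adjusted p = 0.0313) that was −2.32 ± 0.25 (adjusted p = 0.00345) without the subcluster of endothelial markers. In each of the 4 classes both Fracture preparations were below both Control preparations, which adds nothing to changes already called. The smooth muscle-like values of Fracture rest on 7 and 7 UMIs in the libraries of preparation 1 and 19 and 7 in those of preparation 2. The change in that class did not pass with the replicate block. In 1 joint fit over the classes the changes in osteoblast-like and endothelial-like cells were of similar size and did not pass (adjusted p = 0.362 and 0.0877). Without integration the BMSC-like cells held 47.1 and 56.6 CPM in Control and 37.7 and 44.6 CPM in Fracture, a difference that did not pass (−0.27 ± 0.19, adjusted p = 0.475). Arterial endothelial-like cells, where the ligand was highest of all subclasses, held 148 and 163 CPM in Control and 160 and 130 CPM in Fracture, with overlap (−0.03 ± 0.13, adjusted p = 0.905), while the Ramp3-led endothelial subcluster went from 54.2 and 54.0 CPM to 27.6 and 26.3 CPM (−0.91 ± 0.13, adjusted p = 0.0141). The arterial cells were 451 of 1647 and 287 of 1252 cells of the class in Control. In Fracture they were 106 of 1202 and 151 of 1405. The part of this makeup in the class value was not tested. Fibroblast-like cells held 3.83 and 17.8 CPM in Control and 6.16 and 5.29 CPM in Fracture, and chondrocyte-like cells 3.27 and 1.67 CPM against 1.89 and 1.49 CPM, which did not pass (adjusted p = 0.588 and 0.302).

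Pdgfra, the receptor for PDGF-A and a common marker of skeletal progenitors, was shared by BMSC-like, fibroblast-like and osteoblast-like cells. In BMSC-like cells it went from 259 and 338 CPM to 95.5 and 107 CPM, a change of −1.37 ± 0.16 (adjusted p = 0.0043). In osteoblast-like cells the values were 166 and 163 CPM in Control and 128 and 136 CPM in Fracture, a change of −0.38 ± 0.08 (adjusted p = 0.0409) that did not pass with plain library sizes, with the replicate block or in 1 joint fit over the classes (adjusted p = 0.548). Both classes had all Fracture preparations below all Control preparations, in changes already called. Fibroblast-like cells held 158 and 211 CPM in Control and 148 and 160 CPM in Fracture, which overlapped (−0.16 ± 0.16, 95% interval −0.58 to 0.25, adjusted p = 0.525). Chondrocyte-like cells rose, from 9.35 and 5.89 CPM to 15.9 and 17.3 CPM (1.26 ± 0.23, adjusted p = 0.0174). The order of classes thus differed between the groups, with BMSC-like cells at the head in Control (298 ± 55.9 CPM, SD, n = 2) and behind fibroblast-like and osteoblast-like cells in Fracture (101 ± 8.08 CPM, SD, n = 2). None of these 3 classes overlapped in Fracture. Endothelial-like cells (8.39 to 16.2 CPM) and smooth muscle-like cells (6.11 to 21.9 CPM) held little in either group, and their groups overlapped. Without integration the BMSC-like level was 318 and 377 CPM in Control and 149 and 213 CPM in Fracture, a change of −0.88 ± 0.21 that missed the threshold (adjusted p = 0.0886).

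Pdgfrb, the receptor that pericytes need, was carried mainly by BMSC-like and smooth muscle-like cells. BMSC-like cells went from 653 and 755 CPM to 238 and 265 CPM, a change of −1.29 ± 0.12 (adjusted p = 0.00283). Smooth muscle-like cells held 484 and 722 CPM in Control and 632 and 617 CPM in Fracture, with the Fracture values between those of Control (0.07 ± 0.22, 95% interval −0.49 to 0.62, adjusted p = 0.849). In Control the BMSC-like and smooth muscle-like levels overlapped, and in Fracture the smooth muscle-like level was 2.48 times that of BMSC-like cells, with no overlap. Fibroblast-like cells followed with 96.7 and 51.6 CPM in Control and 98.7 and 99.1 CPM in Fracture (0.46 ± 0.31, adjusted p = 0.353). Chondrocyte-like cells rose from 14.5 and 7.80 CPM to 23.3 and 26.0 CPM (1.29 ± 0.30, adjusted p = 0.034), a change that did not pass with the replicate block. Endothelial-like cells held 8.76 to 21.3 CPM and osteoblast-like cells 4.00 to 6.87 CPM over both groups, and neither passed. Without integration the BMSC-like level was 830 and 861 CPM in Control and 591 and 599 CPM in Fracture, a change of −0.45 ± 0.10 (adjusted p = 0.0764).

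**Figure D2:**
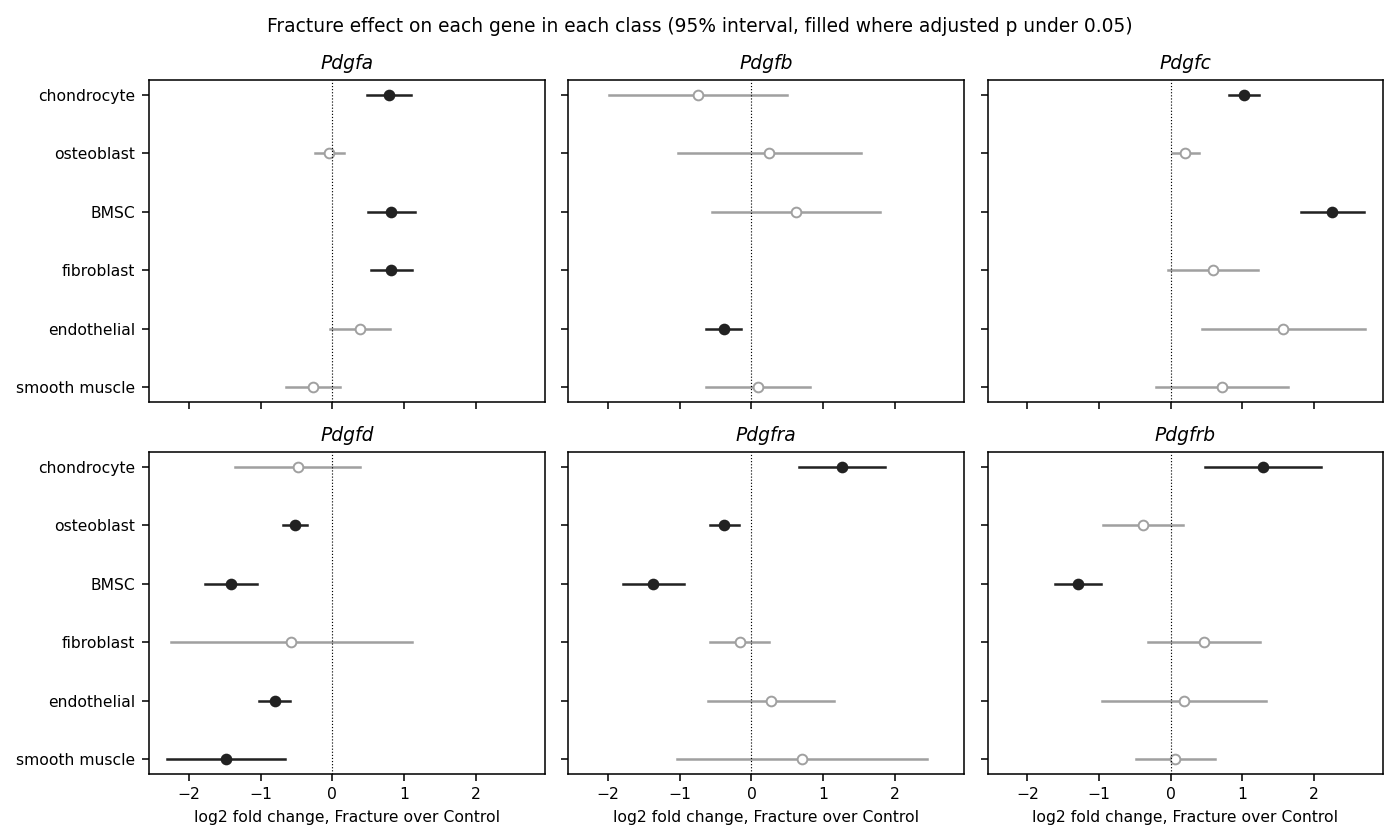
Change of each gene in each class, as log2 fold change of Fracture over Control with its 95% interval from the fit. Filled points passed an adjusted p under 0.05, open points did not, and Pdgfb was not tested in fibroblast-like cells. Pdgfa and Pdgfc lie at or right of 0 in BMSC-like and chondrocyte-like cells, Pdgfd lies left of 0 in all classes, and the receptors lie on opposite sides in chondrocyte-like and BMSC-like cells.

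Whether the effect of fracture differed between classes was tested in a joint fit over all 6. The class-by-group terms passed for Pdgfa (adjusted p = 2.19e-05), Pdgfc (adjusted p = 1.01e-06), Pdgfd (adjusted p = 0.0284), Pdgfra (adjusted p = 4.26e-05) and Pdgfrb (adjusted p = 0.000197), and not for Pdgfb (adjusted p = 0.058), 5 of 6 genes where 60.4% of all genes passed. The term for Pdgfd was lost when either Fracture preparation was left out, and that for Pdgfrb without Fracture preparation 2 (adjusted p = 0.0607). Of 30 contrasts of another class with BMSC-like cells, 17 passed, against 28.7% of the contrasts of all genes. The widest gaps were those of the receptors in chondrocyte-like cells, where the levels of both were low as given above. The effect on Pdgfra in chondrocyte-like cells exceeded that in BMSC-like cells by 2.56 ± 0.30 and that on Pdgfrb by 2.54 ± 0.35 (adjusted p = 6.1e-06 and 2.95e-05). The rise of Pdgfc in BMSC-like cells was larger than the effect in osteoblast-like cells by 2.03 on the log2 scale (adjusted p = 1.55e-07). For Pdgfd the effect differed between osteoblast-like and BMSC-like cells (0.92 ± 0.24, adjusted p = 0.0073) and did not pass between smooth muscle-like and BMSC-like cells (−0.06 ± 0.44, 95% interval −0.98 to 0.87). With mixed subclusters left out that contrast was −0.91 ± 0.50 (adjusted p = 0.198).

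A second clustering took the BMSC-like cells together with the osteoblast-like and fibroblast-like ones. Cells with Adipoq, Lepr and Esm1 are called diaphyseal (dpMSC)-like and cells with Slc20a2, Limch1 and Kcnk2 metaphyseal (mpMSC)-like, after marker lists fixed for these names. Of the list, 100% was raised in the dpMSC-like cells and 75% in the mpMSC-like cells, whose leading gene was Mmp9. The dpMSC-like cells numbered 1692 and 1235 in Control and 198 and 263 in Fracture, and the mpMSC-like cells 903 and 506 in Control and 542 and 586 in Fracture. The BMSC-like class held 2627 and 1722 cells in Control and 1047 and 1129 in Fracture. These subclasses thus leave out part of the class in Fracture. Its Pdgfc UMIs were 455 in Control and 1449 in Fracture. Those of dpMSC-like cells were 8 and 257, and those of mpMSC-like cells 449 and 537. The other Fracture UMIs of the class lay in other subclusters. In Control the mpMSC-like cells held more Pdgfa and Pdgfc, and the dpMSC-like cells more Pdgfd, Pdgfra and Pdgfrb, with no overlap of preparations. BMSC markers summed to 45080 and 39640 CPM in the dpMSC-like cells of Control and to 5692 and 6194 CPM in those of Fracture, and to 7315 and 8056 CPM and 1530 and 1507 CPM in the mpMSC-like cells. In the dpMSC-like cells the summed erythroid markers stood at 228 and 1610 CPM in Control and at 8788 and 11220 CPM in Fracture, above the BMSC markers of the same cells, which goes against the name of the subclass in Fracture. Other lists were higher there as well, the fibroblast markers from 63.7 and 40.1 CPM to 1460 and 1475 CPM, the chondrocyte markers from 461 and 163 CPM to 3141 and 2884 CPM and the smooth muscle markers from 327 and 247 CPM to 1196 and 1164 CPM. In the mpMSC-like cells osteoblast markers were above the BMSC markers in both groups, at 13590 and 12450 CPM in Control and 15690 and 16870 CPM in Fracture. The part of these markers in the values that follow was not tested.

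In the dpMSC-like cells 5 of the 5 genes tested changed, 2 higher and 3 lower, where 21.1% of all genes rose and 18.9% fell. Pdgfc was nearly absent from them in Control, with 0.858 and 0.119 CPM from 7 and 1 UMIs, and stood at 65.1 and 54.5 CPM from 122 and 135 UMIs in Fracture, a pooled ratio of 122 (95% counting interval 61.2 to 287, adjusted p = 0.000762). Pdgfa went from 83.8 and 79.1 CPM to 98.7 and 122 CPM (0.70 ± 0.14, adjusted p = 0.0136). Pdgfd went from 52.8 and 61.4 CPM to 13.3 and 14.9 CPM (−1.75 ± 0.17, adjusted p = 0.00141). The receptors fell with it, Pdgfra from 346 and 399 CPM to 150 and 182 CPM (−0.91 ± 0.14, adjusted p = 0.00648). Pdgfrb fell from 877 and 898 CPM to 305 and 339 CPM (−1.21 ± 0.11, adjusted p = 0.00123).

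In the mpMSC-like cells the same 5 genes changed in the same directions, with smaller fitted changes, where 15.5% of genes rose and 13.8% fell. Pdgfc went from 40.1 and 40.8 CPM to 52.9 and 56.6 CPM (0.58 ± 0.10, adjusted p = 0.0142), a ratio of 1.36 in pooled UMIs (95% counting interval 1.2 to 1.54). Pdgfa went from 239 and 222 CPM to 305 and 269 CPM (0.45 ± 0.08, adjusted p = 0.018). Pdgfd fell from 36.3 and 39.2 CPM to 24.3 and 23.9 CPM (−0.50 ± 0.11, adjusted p = 0.029). Pdgfra fell from 167 and 207 CPM to 93.5 and 104 CPM (−0.78 ± 0.14, adjusted p = 0.0163) and Pdgfrb from 394 and 441 CPM to 231 and 244 CPM (−0.68 ± 0.09, adjusted p = 0.00902). The groups did not overlap for any of these 5 genes, which had already been called. The share of all genes without overlap was not counted, so nothing further is read from this. Whether an effect differed between the subclasses was not tested.

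**Figure D3:**
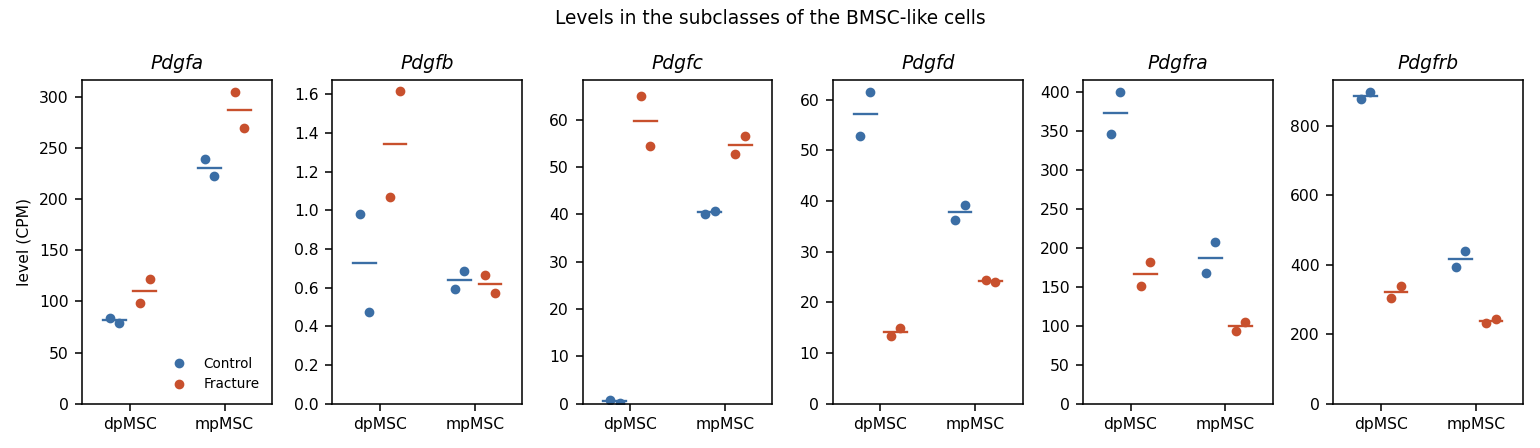
Levels of the 6 genes in dpMSC-like and mpMSC-like cells, in CPM on linear axes that start at 0, with a range per panel. Points are the preparations of Control (blue) and Fracture (red) and bars their means. Pdgfc in dpMSC-like cells goes from under 1 CPM in Control to 65.1 and 54.5 CPM in Fracture, and Pdgfrb falls in both subclasses.

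The other subclasses add little. In the osteoblast-like subcluster Pdgfd and Pdgfra fell (15.5% of genes changed), as in the class. In the fibroblast-like subcluster Pdgfa rose by 0.74 ± 0.11 (adjusted p = 0.0211, 15.7% of genes changed). The chondrocyte-like cells formed a cluster led by Col10a1 and Ihh, genes of hypertrophic and prehypertrophic cartilage, and a cluster led by Serpina1a. The first held 1202 and 411 cells in Control and 5641 and 5919 in Fracture, and the second 940 and 288 cells against 1179 and 1239, so that the first made up more of the class in Fracture. In the Col10a1-led cells 4 members rose (background 15.6% higher and 15.3% lower). Pdgfa went from 58.3 and 49.8 CPM to 64.5 and 65.8 CPM, and its rise of 0.36 ± 0.09 (adjusted p = 0.0455) was smaller than the 0.79 of the whole class and did not pass with plain library sizes (adjusted p = 0.0958). Pdgfc rose by 0.68 ± 0.12 (adjusted p = 0.018), Pdgfra by 0.92 ± 0.23 (adjusted p = 0.0427; 0.0533 with plain library sizes) and Pdgfrb by 1.14 ± 0.26 (adjusted p = 0.0346). In the Serpina1a-led cells Pdgfra rose by 1.17 ± 0.21 (adjusted p = 0.0363, background 8.03% higher and 5.15% lower), from 5.43 and 3.48 CPM to 10.1 and 9.29 CPM, while Pdgfa just missed the threshold (1.14 ± 0.26, adjusted p = 0.056). Pdgfc, at 3.41 and 1.55 CPM in Control and 2.72 and 2.95 CPM in Fracture, and Pdgfrb, at 11.9 and 5.22 CPM against 8.80 and 12.2 CPM, overlapped between the groups there and did not pass (adjusted p = 0.756 and 0.571). No member passed in a smooth muscle-like subcluster led by H2-M9 and haemoglobin genes with the pericyte gene Steap4 (12.7% of genes changed), in an endothelial-like subcluster with osteoblast markers (2.83%) or in a stromal subcluster led by Gchfr (2.16%). That smooth muscle-like subcluster held the highest Pdgfrb of all subclasses tested, 986 and 1218 CPM in Control and 904 and 800 CPM in Fracture (−0.31 ± 0.17, adjusted p = 0.266).

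Summed over all stromal cells, 4 of the 6 genes fell, where 18.4% of genes rose and 21% fell. Pdgfd changed by −1.62 ± 0.09 (adjusted p = 0.00352), Pdgfrb by −1.58 ± 0.16 (adjusted p = 0.00751), Pdgfra by −1.26 ± 0.14 (adjusted p = 0.0085) and Pdgfb by −0.82 ± 0.09 (adjusted p = 0.00865). Pdgfa (−0.01 ± 0.10, adjusted p = 0.946) and Pdgfc (0.35 ± 0.10, adjusted p = 0.0529) did not pass. The sum moves with the makeup of the suspension, in which chondrocyte-like cells were 23.4% and 14.0% of stromal cells in Control and 59.3% and 58.0% in Fracture, and BMSC-like cells 28.7% and 34.4% in Control and 9.11% and 9.15% in Fracture.

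The classes that held the transcripts changed with that makeup. BMSC-like cells held 83.2% ± 7.37 (SD, n = 2) of the stromal Pdgfrb UMIs in Control and 38.6% ± 0.952 in Fracture, while chondrocyte-like cells, each with a low level, held 2.18% ± 1.80 and 33.1% ± 1.07. For Pdgfra the share of BMSC-like cells went from 46.5% ± 9.93 to 16.4% ± 0.0927, that of chondrocyte-like cells from 1.88% ± 1.35 to 23.7% ± 0.213, and that of osteoblast-like cells from 47.0% ± 7.64 to 39.3% ± 0.140. Osteoblast-like cells held 42.4% ± 0.992 of the Pdgfa UMIs in Control and 19.1% ± 0.625 in Fracture, and 68.8% ± 3.6 and 28.5% ± 0.149 of the Pdgfc UMIs. Chondrocyte-like cells held 9.97% ± 3.39 and 41.6% ± 0.792 of those of Pdgfa. Pdgfb stayed with endothelial-like cells, at 92.9% ± 5.26 and 93.2% ± 0.198, and osteoblast-like cells held 55.2% ± 6.57 and 54.4% ± 0.534 of Pdgfd. No test was run on these shares, which move with the makeup.

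**Figure D4:**
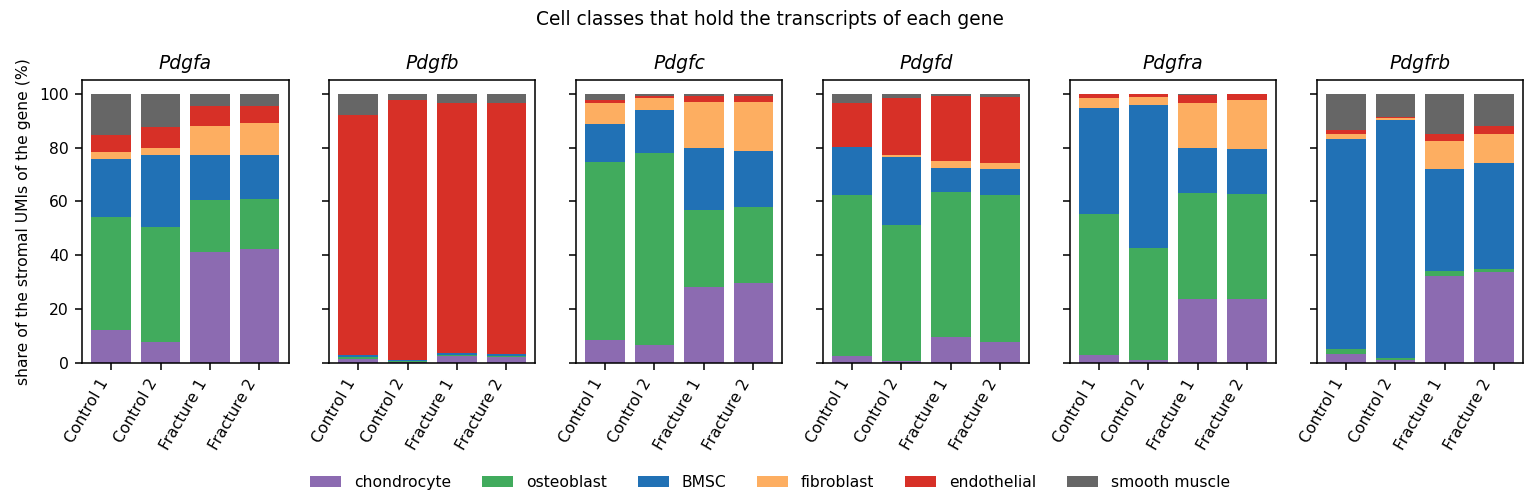
Share of the stromal UMIs of each gene that each class holds, in percent per preparation, as stacked bars that sum to 100. The BMSC-like part of Pdgfrb goes from 83.2% to 38.6% on average and the chondrocyte-like part from 2.18% to 33.1%, while endothelial-like cells hold nearly all of Pdgfb in each preparation.

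Shares of cells with at least 1 UMI were taken after thinning each cell to 1000 UMIs, which left out 68 BMSC-like and 92 endothelial-like cells of Control that were shallower. BMSC-like cells with Pdgfrb were 51.5% and 53.3% in Control and 21.6% and 23.3% in Fracture, cells with Pdgfra 22.9% and 29.1% against 9.74% and 10.2%, and cells with both receptors 13% and 16.6% against 2.77% and 2.04%. The product of the receptor shares was 11.8% and 15.5% in Control and 2.10% and 2.37% in Fracture, close to the joint shares. Without thinning, 62.7% and 76.7% of BMSC-like cells held both receptors in Control and 38.0% and 43.0% in Fracture. Endothelial-like cells with Pdgfb were 22.6% and 19.8% against 15% and 14.4%, and without thinning 53.1% and 56.1% against 57.0% and 58.6%, the other order, at a median depth of 4131 and 5330 UMIs in Control and 7558 and 8215 UMIs in Fracture. Smooth muscle-like cells with Pdgfrb were 38.7% and 43.4% in Control and 51.2% and 44.2% in Fracture, and cells with Pdgfa 36.9% and 42.0% against 35.7% and 29.5%. Cells with Pdgfc rose from 0.938% and 0.872% to 6.59% and 5.76% of BMSC-like cells, and from 0.122% and 0% to 6.06% and 6.08% of dpMSC-like cells. The smallest p that an exact two-sided permutation test can give for 2 against 2 is 0.33, and no share could pass.

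The share in cells that should lack these genes gives a background, from few cells. Of the erythroid-like cells, 0% and 0% held Pdgfra in Control and 0.833% and 1.76% in Fracture, where 120 and 170 cells were counted, and 0.415% and 0.126% held Pdgfrb in Control and 0% and 1.18% in Fracture. Their median depth was 3305 and 15300 UMIs in Control and 5560 and 6256 UMIs in Fracture. Chondrocyte-like cells with Pdgfra were 1.17% and 1.29% in Control and 1.85% and 2.21% in Fracture, and those with Pdgfrb 2.06% and 1.43% against 2.2% and 3.1%, with a median depth of 12280 to 17960 UMIs. Without thinning the Pdgfra shares were 8.12% and 6.29% in Control and 13.7% and 15.5% in Fracture. In Fracture the lower thinned share for Pdgfra, 1.85%, lay close to the higher erythroid share of 1.76% (3 of 170 cells, exact 95% interval 0.365% to 5.07%), and no change in the share of chondrocyte-like cells is read from these values.

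**Figure D5:**
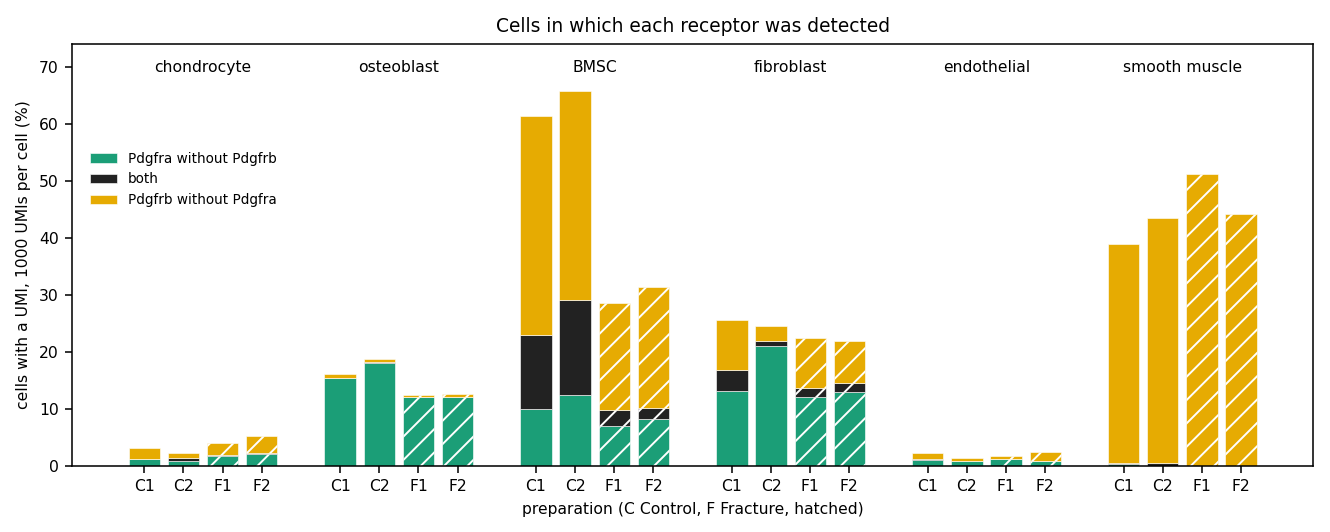
Share of cells with a UMI of Pdgfra, Pdgfrb or both after thinning to 1000 UMIs per cell, in percent, by class and preparation (hatched for Fracture). Stacks add up to the cells with either receptor. In BMSC-like cells they reach 61.4% and 65.7% in Control and 28.6% and 31.4% in Fracture, and in smooth muscle-like cells nearly all detection is of Pdgfrb alone.

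Other genes of PDGF signalling were described from a list of 41, grouped by role. In BMSC-like cells 40 were tested, 14 rose and 12 fell, where 25.6% of all genes rose and 26.1% fell, with a median change of 0.04 against −0.03 for all genes. Of 5 tested genes that process the ligands, such as convertases and plasminogen activators, 4 rose (median 2.08). Plat, the tissue plasminogen activator that can cut PDGF-C, went from 18.7 and 9.38 CPM to 70.8 and 63.1 CPM (2.44 ± 0.34, adjusted p = 0.00622). Plau, the urokinase, which can cut PDGF-D, went from 0.130 and 0.315 CPM to 5.61 and 4.86 CPM, from 6 and 113 UMIs in all, a pooled ratio of 24.4 (95% counting interval 10.8 to 67.8, adjusted p = 0.00239). Plat was named after its values were seen. Of 8 genes that switch the receptor off 5 fell and none rose (median −0.75), and of 7 immediate early genes 6 rose (median 1.21), led by Fosl1, from 0.586 and 0.709 CPM to 8.16 and 8.33 CPM (3.85 ± 0.22, adjusted p = 0.00155). The largest falls were in A2m, a protease inhibitor that binds PDGF, from 233 and 333 CPM to 24.7 and 30.9 CPM (−3.16 ± 0.24, adjusted p = 0.0021), and in the co-receptor Nrp1, from 757 and 897 CPM to 199 and 194 CPM (−1.88 ± 0.12, adjusted p = 0.00167). A2m was also among the leading genes of the mpMSC-like cells.

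In chondrocyte-like cells all 41 were tested, and 14 rose and 6 fell (median 0.20 against −0.01), beside 19.2% and 18.1% of all genes. Plau went from 0.0654 and 0.0796 CPM to 2.32 and 3.0 CPM, from 3 UMIs in Control and 511 in Fracture, a pooled ratio of 38.6 (95% counting interval 13.1 to 188, adjusted p = 0.00301). The convertase gene Pcsk5 went from 6.01 and 3.10 CPM to 39.0 and 36.8 CPM (3.19 ± 0.32, adjusted p = 0.0052), and the phosphatase gene Ptprj fell from 5.85 and 9.87 CPM to 2.46 and 2.44 CPM (−1.49 ± 0.28, adjusted p = 0.0189). St14, a membrane protease that can cut PDGF-C and PDGF-D, fell from 1.6 and 1.0 CPM to 0.484 and 0.403 CPM (−1.49 ± 0.29, adjusted p = 0.0213). Genes were named only where the groups did not overlap, so the lack of overlap in these 4 adds no evidence.

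In osteoblast-like cells 38 were tested, 9 rose and 2 fell (median 0.21 against 0.00; all genes 9.53% and 6.23%), and all 6 immediate early genes tested rose, with a median of 1.89. Jun went from 151 and 182 CPM to 761 and 734 CPM (2.10 ± 0.13, adjusted p = 0.00516), and Ccl2, at 6 UMIs in Control and 36 in Fracture, had a pooled ratio of 7.87 (95% counting interval 3.29 to 22.9, adjusted p = 0.03). Thbs1, a matrix protein that binds PDGF, went from 808 and 766 CPM to 559 and 570 CPM (−0.54 ± 0.07, adjusted p = 0.0167), and Nrp1 from 50.2 and 50.5 CPM to 38.6 and 40.4 CPM (−0.41 ± 0.08, adjusted p = 0.0393). Immediate early genes also respond to tissue dissociation, whose part was not tested.

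In endothelial-like cells 41 were tested, 9 rose and 10 fell (median 0.05 against 0.01), where 17.4% of all genes rose and 15.9% fell. Cspg4, which codes for the NG2 proteoglycan of pericytes and binds PDGF-AA, went from 11.6 and 3.08 CPM to 62.7 and 58.3 CPM (3.16 ± 0.63, adjusted p = 0.0271) in a class whose chondrocyte markers rose as given above, and the level of Cspg4 in chondrocyte-like cells of Fracture was 355 and 351 CPM. The convertase gene Pcsk6 went from 22.1 and 13.1 CPM to 79.8 and 72.8 CPM (2.24 ± 0.27, adjusted p = 0.0118), and stood at 96.2 and 93.5 CPM in chondrocyte-like cells of Control and at 304.4 and 299.7 CPM in those of Fracture. The part of mixed cells in the changes of Cspg4 and Pcsk6 was not tested. Ptprj fell from 13.8 and 13.1 CPM to 3.76 and 3.13 CPM (−1.84 ± 0.16, adjusted p = 0.00932) and Pcsk5 from 75.4 and 68.2 CPM to 30.9 and 29.8 CPM (−1.12 ± 0.09, adjusted p = 0.00894). Of 13 adaptors and enzymes that bind the active receptor, 6 fell and 1 rose, with the same shares of all genes as background.

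In fibroblast-like cells 40 were tested, 3 rose and 4 fell (median −0.01 against 0.00), with 7.16% of all genes higher and 6.64% lower. Ier3 went from 127 and 104 CPM to 313 and 328 CPM (1.55 ± 0.16, adjusted p = 0.0104) and Ptpn2 from 23.9 and 18.7 CPM to 36.7 and 34.8 CPM (0.79 ± 0.17, adjusted p = 0.047). Pcsk5 fell from 136 and 72.0 CPM to 19.5 and 23.5 CPM (−2.21 ± 0.34, adjusted p = 0.0237) and Pcsk6 from 124 and 207 CPM to 55.9 and 59.0 CPM (−1.43 ± 0.24, adjusted p = 0.0286). In smooth muscle-like cells 37 were tested, 9 rose and none fell (median 0.20 against −0.01), against 13.6% and 12.3% of all genes. Ccl2, a chemokine gene that PDGF induces in culture, went from 1.94 and 0 CPM to 168 and 89.2 CPM, from 7 UMIs to 389, a pooled ratio of 89.7 (95% counting interval 43.1 to 225, adjusted p = 0.00625). A2m went from 1.11 and 0 CPM to 21.9 and 21.1 CPM, from 4 UMIs to 65 (ratio 26.2, 95% counting interval 9.77 to 99.1, adjusted p = 0.00772).

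The genes most like each member were found over 24 values, 6 classes by 4 preparations, of log2(CPM + 1), among 6508 genes with a mean of at least 20 CPM. The values of a preparation share a suspension, and the correlations describe these classes only. For Pdgfb they were Esam (Pearson's r = 0.993), Flt1 (0.987) and Ptprb (0.984), all known from endothelium, and for Pdgfrb C1s (0.976), 1500009L16Rik (0.963) and Runx1t1 (0.957). For Pdgfc they were Col5a1 (0.919), Twist1 (0.899) and Pcolce (0.896), for Pdgfa Mkks (0.945), Dnajb4 (0.914) and Msrb1 (0.909), for Pdgfd Mtss1 (0.936), Lrp5 (0.918) and Map4k3 (0.912), and for Pdgfra Glis2 (0.906), Itga11 (0.898) and Jtb (0.879).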

How the data were processed

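Per the labels, bone stromal cells of C57BL/6 females were profiled with 10x 3′ v3 libraries. The values are UMI counts per gene and cell that the authors deposited without normalization, after they had selected barcodes. The submitters' processing notes name bcl2fastq 2.19.1.403, UMI-tools 1.0.0, STAR 2.7.3a and featureCounts 1.6.4 with mm10. The selection reached deeper barcodes in Fracture, with a lowest total of 1929 UMIs against 1 in Control.

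Cells with 500 to 6000 genes and at most 25% mitochondrial UMIs were kept, with the 26357 genes that had a UMI in 3 cells or more. Called doublets (718, 1.58% of cells) were kept, with an alternative without them. Cells were clustered with Seurat 5.3.0 after integration of the libraries (12 components, resolution 0.1), and clusters were named from marker lists. Counts were summed by class and preparation and tested with the quasi-likelihood test of edgeR 4.0.16 (R 4.3.3; TMM scaling, its default filter on low counts, Benjamini-Hochberg adjustment over all genes, calls at an adjusted p under 0.05). Differences between classes were tested in a joint fit. Counting intervals for pooled ratios are exact, at 95%, and cover counting error only. Tests were checked on simulated counts. The members, the marker lists and the pathway list were chosen with earlier results of these data known. All members were reported in each class, and of the pathway genes per class at most the 2 that rose most and the 2 that fell most among called genes without overlap of preparations. Outside this rule, Plat was named in BMSC-like cells after its values had been seen. The 3 genes most like each member were taken by Pearson correlation. Alternatives were DESeq2 1.42.0, other scalings, no filter, each preparation left out, a replicate block, libraries as replicates, other cell filters and other clusterings. Leaving out subclusters with markers of another class, testing the chondrocyte-like clusters one by one, and the alternatives for subclasses and sums were added after the data had been seen. Preparations that share a number shared nothing else in the labels. Some marker values are not reported here.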

Additional observations from a re-analysis of the deposited data

Results flagged for a closer look

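Of 72 groups of 4 libraries, 3 held a library apart from the others by Dixon's criterion, and chance gives about 1 in 20. Pdgfb in smooth muscle-like cells was at 59.95 CPM in Fracture preparation 2, library 1, and at 42.13 to 44.88 CPM in the other Fracture libraries. Pdgfra in fibroblast-like cells was at 250.9 CPM in Control preparation 2, library 2, against 155.0 to 170.6 CPM in the others. Pdgfra in endothelial-like cells was at 11.6 CPM in Fracture preparation 2, library 1, against 14.21 to 14.71 CPM.

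The effect of fracture differed between the 6 classes in the joint edgeR fit for Pdgfa (adjusted p = 2.19e-05), Pdgfc (1.014e-06), Pdgfd (0.02837), Pdgfra (4.259e-05) and Pdgfrb (0.0001972). That of Pdgfd did not pass without Fracture preparation 1 (adjusted p = 0.389) or 2 (0.163), nor that of Pdgfrb without Fracture preparation 2 (0.0607). The term for Pdgfb, which had not passed, did without Control preparation 1 (0.012) or 2 (0.0494) and with libraries as replicates (0.0245). Set against the effect in BMSC-like cells on the log2 scale, that on Pdgfa differed by −0.4336 in endothelial-like, −0.8407 in osteoblast-like and −1.025 in smooth muscle-like cells. The effect on Pdgfc differed by −1.18 in chondrocyte-like, −1.594 in fibroblast-like, −2.026 in osteoblast-like and −1.51 in smooth muscle-like cells, and that on Pdgfd by 0.9152 in osteoblast-like cells. For Pdgfra the differences were 2.558 in chondrocyte-like, 1.625 in endothelial-like, 1.309 in fibroblast-like, 1.011 in osteoblast-like and 2.231 in smooth muscle-like cells. The last of these was 0.98 without Fracture preparation 1 and 2.926 without Fracture preparation 2. For Pdgfrb they were 2.545 in chondrocyte-like, 1.498 in endothelial-like, 1.812 in fibroblast-like and 1.447 in smooth muscle-like cells. With mixed subclusters left out the endothelial-like contrasts were 0.92 for Pdgfra and 1.12 for Pdgfrb and did not pass (adjusted p = 0.223 and 0.212). That of Pdgfa did not pass with called doublets removed (−0.34, adjusted p = 0.0807) or at 3000 UMIs or more per cell (−0.40, adjusted p = 0.0831). All 17 are relative to BMSC-like cells, whose markers fell and whose changes that passed were smaller without integration except that of Pdgfc.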

How the results depend on the processing

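All 15 changes by class kept their direction under each alternative run, and 10 to 15 of them passed under alternatives that kept all preparations, where 11 to 19 pairs passed in all, pairs gained included. Leaving out 1 preparation gave 4 to 23 calls by class, 0 to 5 for the stromal sum (4 with all preparations), 5 to 33 within subclasses (23) and 7 to 22 contrasts between classes (17). The lowest values came without a Fracture preparation, where the lone one is assumed to vary like the Control pair. Samples that share a preparation number are not paired by the labels, and their deviations correlated at 0.0106 to 0.0474. With the replicate block 11 changes passed, without Pdgfb in endothelial-like, Pdgfd in smooth muscle-like, Pdgfra in osteoblast-like and Pdgfrb in chondrocyte-like cells. In 1 joint fit over the classes Pdgfd and Pdgfra in osteoblast-like and Pdgfb and Pdgfd in endothelial-like cells did not pass.

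Some changes that had not passed turned direction, and the cause was not tested. With plain library sizes Pdgfa in osteoblast-like cells was 0.025. Without integration the changes were 0.051 for Pdgfa and 0.13 for Pdgfrb in osteoblast-like cells, −0.89 for Pdgfra and −0.26 for Pdgfrb in endothelial-like cells and −0.19 for Pdgfra in smooth muscle-like cells. At resolution 0.2 they were −0.21 for Pdgfrb in endothelial-like and −0.41 for Pdgfb in smooth muscle-like cells. With mixed subclusters left out they were −0.44 for Pdgfra and −0.16 for Pdgfrb in endothelial-like and −0.45 for Pdgfb in smooth muscle-like cells. With all preparations kept, calls gained in endothelial-like cells were Pdgfa, Pdgfc and Pdgfra without called doublets and Pdgfa with mixed subclusters left out. Pdgfa and Pdgfc were also gained there with libraries as replicates. DESeq2, no filter and the joint fit over the classes each gained Pdgfc there. For Pdgfa in the stromal sum DESeq2 gave 0.015 and no filter 0.0036.

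Leaving out 1 preparation gave ranges that crossed 0 for Pdgfb (−1.14 to 0.52) and Pdgfd (−0.79 to 0.16) in chondrocyte-like cells, Pdgfa (−0.11 to 0.033) and Pdgfb (−0.13 to 0.99) in osteoblast-like cells, Pdgfd (−1.52 to 0.63) and Pdgfra (−0.33 to 0.029) in fibroblast-like cells, Pdgfra (−0.12 to 0.82) and Pdgfrb (−0.31 to 0.97) in endothelial-like cells, and Pdgfb (−0.20 to 0.52), Pdgfra (−0.43 to 1.27) and Pdgfrb (−0.20 to 0.37) in smooth muscle-like cells. The same held for Pdgfa in the stromal sum (−0.12 to 0.13), Pdgfb (−0.15 to 0.057) and Pdgfd (−0.16 to 0.10) in arterial endothelial-like cells, Pdgfc (−0.12 to 0.95) and Pdgfrb (−0.019 to 1.10) in the Serpina1a-led chondrocyte-like cells and Pdgfd (−0.12 to 0.081) in sinusoidal endothelial-like cells.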

Other observations

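Megakaryocytes are the cells that load platelets with PDGF. Megakaryocyte-like cells were counted per preparation, 679 and 232 of them in Control against 32 and 30 in Fracture. Their Pdgfa stood at 339 and 398 CPM in Control and at 170 and 240 CPM in Fracture, where it rested on 60 and 72 UMIs. Their Pdgfb stood at 38.3 and 23.9 CPM in Control and at 45.3 and 16.7 CPM in Fracture, from 16 and 5 UMIs in the latter. Their own markers stood at 40460 and 25210 CPM in Control and at 19090 and 15550 CPM in Fracture. The chondrocyte markers there went from 1265 and 300 CPM to 11200 and 8170 CPM. Called doublets were 10 and 1 of these cells in Control and 3 and 6 in Fracture. No test was run on these cells, and the part of mixed cells in their values was not tested.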
